A study of Rattus norvegicus with 14 samples.

Results

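The Slc1, Slc3, Slc7, Slc36, Slc38 and Slc43 families carry amino acids across the plasma membrane and the lysosomal membrane of mammalian cells, and their genes were followed here in the rat epididymis from day 7 to day 60 after birth. The members are all genes whose only symbol on the array begins with Slc1a, Slc3a, Slc7a, Slc36a, Slc38a or Slc43a and a number: 44 of the 18166 genes with 1 symbol. They comprise 7 Slc1, 2 Slc3, 17 Slc7, 4 Slc36, 11 Slc38 and 3 Slc43 genes. Each had 1 transcript cluster (the array's probe set for a transcript), and the symbol of all 44 matched RefSeq. At least 2 of the 44 are not known as amino acid carriers. Slc7a6os is named for lying opposite Slc7a6 and encodes no transporter, and Slc43a3 encodes a carrier of purine nucleobases.

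Epididymides of Sprague-Dawley rats of 4 ages were taken whole, frozen and pooled, and 1 RatGene 2.0 ST array measured each pool. Day 7 and day 60 had 3 pools each, and day 18 and day 28 had 4 each. The animals carried no named allele and no treatment is labelled. The younger rats stayed with their mothers, the day 28 and day 60 rats ate freely, and the labels do not say how many animals made a pool. The spread between pools is the only error measured, and pool numbers do not tie samples of different ages together.

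Carriers of the Slc7 family either work alone, as the cationic amino acid transporters do, or as light chains joined by a disulfide bond to a heavy chain of the Slc3 family. Slc1 proteins take up glutamate and aspartate or exchange small neutral amino acids, Slc38 proteins move glutamine and other neutral amino acids with sodium, and Slc36 proteins move small amino acids with protons. The epididymal epithelium secretes protein into the lumen and shapes the amino acid content of the fluid around spermatozoa, in which glutamate is abundant.

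Values are log2 signals made by the authors with RMA, so a difference of 1 is 2-fold. A gene is called when its adjusted p in limma's moderated test (Benjamini-Hochberg over the 18166 genes) is under 0.05. Levels are given as mean ± SD over pools and differences as later minus earlier age ± SE of the fit. A background level of 4.92 was taken as the 95th percentile of 1344 olfactory and vomeronasal receptor genes. Array medians ran from 5.21 to 5.42, and pools of 1 age correlated at 0.989 to 0.995 across genes. Replicate 2 of day 28 had the highest array median and the lowest mean correlation with its own age (0.9901).

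The tissue label was set against marker genes chosen for cell types the organ may hold. All 5 principal cell markers (Lcn5, Crisp1, Rnase9, Adam7, Defb42) were higher at day 60 than at day 7. Their mean level per pool was 4.62 to 4.97 at day 7, when 4 of the 5 lay under the background level, 8.11 to 8.48 at day 18, 10.6 to 10.72 at day 28 and 12.5 to 12.59 at day 60. The 5 general epithelial markers averaged 9.33 to 9.63 at day 7, 10.2 to 10.3 at day 18, 9.97 to 10.06 at day 28 and 9.88 to 9.92 at day 60. The 5 adipocyte markers averaged 5.21 to 5.61, 5.92 to 6.77, 6.57 to 7.34 and 7.64 to 7.84 at the same ages. Markers of T lymphocytes were low (5.79 to 5.93 at day 60, 4.93 to 4.97 at day 7), and all 5 were higher at day 60 than at day 7. The 5 fibroblast and matrix markers averaged 11.69 to 11.74 at day 60 and 12.23 to 12.34 at day 7, with 4 lower. The 5 markers of haploid germ cells averaged 4.35 to 4.43, 4.4 to 4.72, 4.44 to 4.72 and 6.72 to 7.17. Of the nerve and Schwann cell markers 3 of 5 were measured, and they averaged 7.64 to 7.94, 6.3 to 6.5, 6.48 to 6.8 and 6.86 to 7.33. Of the 3 measured endothelial markers, 2 were lower at day 18 than at day 7 (median -0.65) and 3 higher at day 28 than at day 18 (median 0.38). Of the 3 measured smooth muscle markers, 2 were lower at day 18 (median -0.64) and 2 higher at day 28 (median 0.70). Of the 5 macrophage markers 3 were higher at day 60 than at day 28 (median 0.34), and both measured red blood cell markers were lower at day 60 than at day 7 (median -0.65). The members moved against this changing mixture of cells, whose part in their changes was not tested, and in whole tissue fewer cells of a type and less RNA per cell cannot be told apart.

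At day 60 against day 7, 16 of the 44 members were higher and 11 lower. That is 61.4% called, against 49.2% of all genes (21.7% higher and 27.6% lower). Rises of more than 13-fold were seen in Slc7a11, Slc38a5, Slc1a1, Slc36a2 and Slc7a15, and the largest fall was 7.44-fold, in Slc38a4. Slc7a11 and Slc36a2 started under the background level and Slc38a4 ended near it, so the sizes of their differences are uncertain. Of the 44, 10 were called and at least 2-fold higher and 4 at least 2-fold lower, beside 7.05% and 6.28% of all genes. The median difference was -0.03 over the members and -0.03 over all genes.

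The joint test over the 4 ages called 31 members (70.5%, against 60.4% of all genes). In 20 of these the highest and lowest age means were at least 1 apart (16.5% of all genes met both conditions). Of these 20, the mean was highest at day 60 in 13, at day 7 in 6 and at day 18 in 1. Another 9 members lay at or under the background level on the mean of all arrays, and none of the 9 was called in the joint test. Of the other 35, 31 were called. Neither the share called among all genes above that level nor the ages of the highest mean over all genes were counted.

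The steps differed in balance. At day 18 against day 7, 12 members were higher and 14 lower (27.3% and 31.8%, against 17.4% and 20.7% of all genes, or 38.1% called in all). At day 28 against day 18 there were 11 higher and 4 lower (25% and 9.09%, against 10.5% and 14.3% of all genes, or 24.7% in all). At day 60 against day 28 there were 15 higher and 2 lower (34.1% and 4.55%, against 13.8% and 11.2% of all genes, or 25% in all), and quantile normalization of the table changed this split to 14 higher and 4 lower. The balance over all genes depended on the scaling too: at this last step 2511 genes were higher and 2039 lower as deposited, 2211 and 2633 after quantile normalization, and 2793 and 1104 with arrays centred on their medians, where the members had 17 and 2. At day 28 against day 18 centring gave 1339 higher and 2890 lower of all genes, beside 1899 and 2592 as deposited. For day 18 against day 7 it gave 2486 higher and 3954 lower of all genes, beside 3167 and 3762 as deposited. Among the members it ended the calls of Slc3a2, Slc43a1 and Slc7a6os at that step, all of them rises. Called differences of at least 2-fold numbered 5 higher and 4 lower at day 18 against day 7 (2.82% and 3.07% of all genes), 3 higher and 1 lower at day 28 against day 18 (1.56% and 0.606%), and 6 higher and 0 lower at day 60 against day 28 (1.58% and 0.374%). The median difference over the members was -0.07, 0.12 and 0.19 at the 3 steps, beside 0.01, -0.02 and -0.02 over all genes. Just 5 members rose at all 3 steps (Slc1a1, Slc3a2, Slc36a1, Slc36a2 and Slc38a5) and 1 fell at all 3 (Slc38a4), while 10 rose at 1 step and fell at another. The shares of all genes with such patterns were not counted. Some of these calls, among them 1 step each of Slc3a2 and Slc38a5, ended under alternatives given below.

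**Figure D1:**
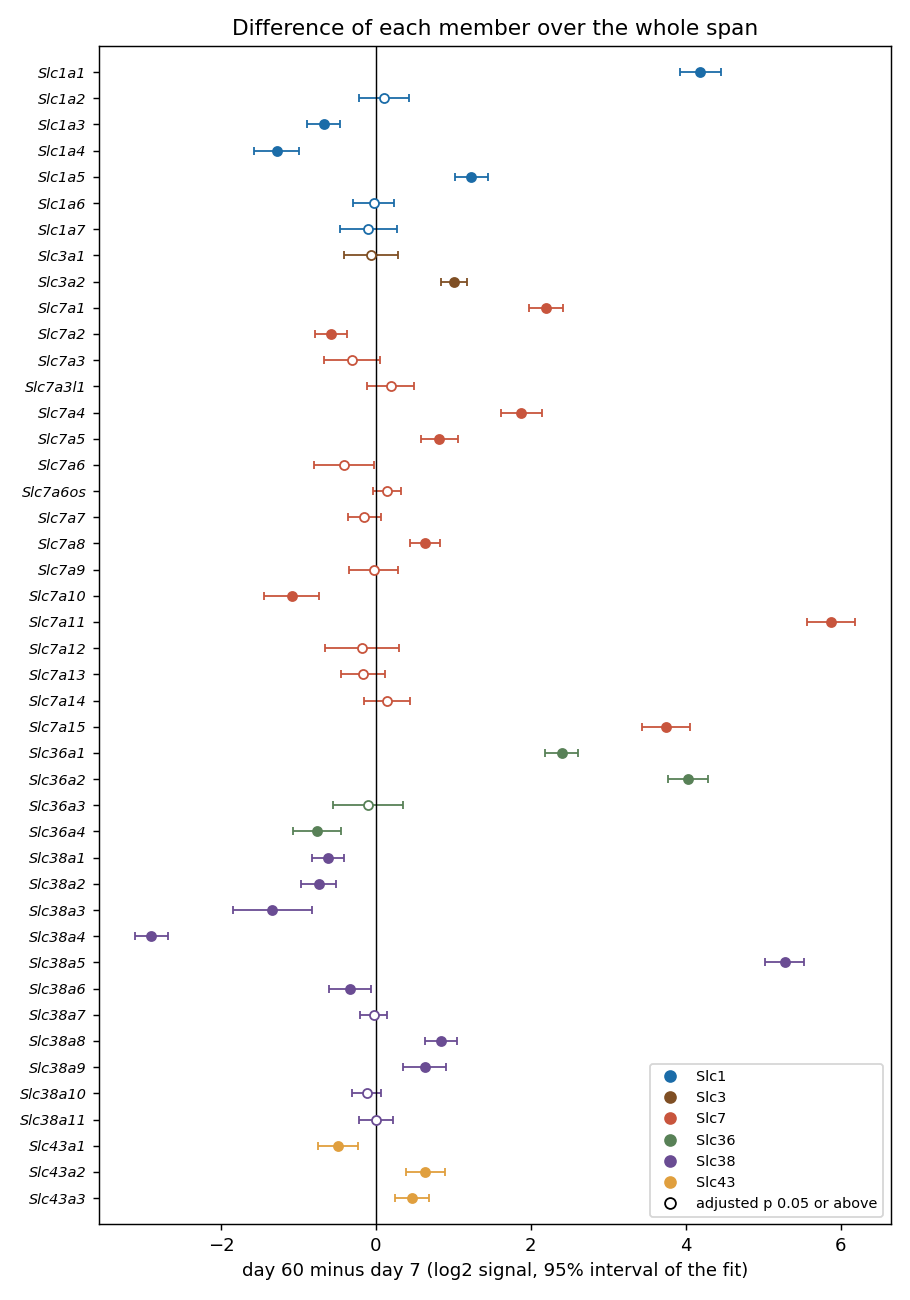
Day 60 minus day 7 for the 44 members, by family, as log2 difference with the 95% interval of the fit; filled points have an adjusted p under 0.05. Slc7a11, whose day 7 mean lay under the background level, stands farthest right at 5.87 and Slc38a4 farthest left at -2.90.

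**Figure D2:**
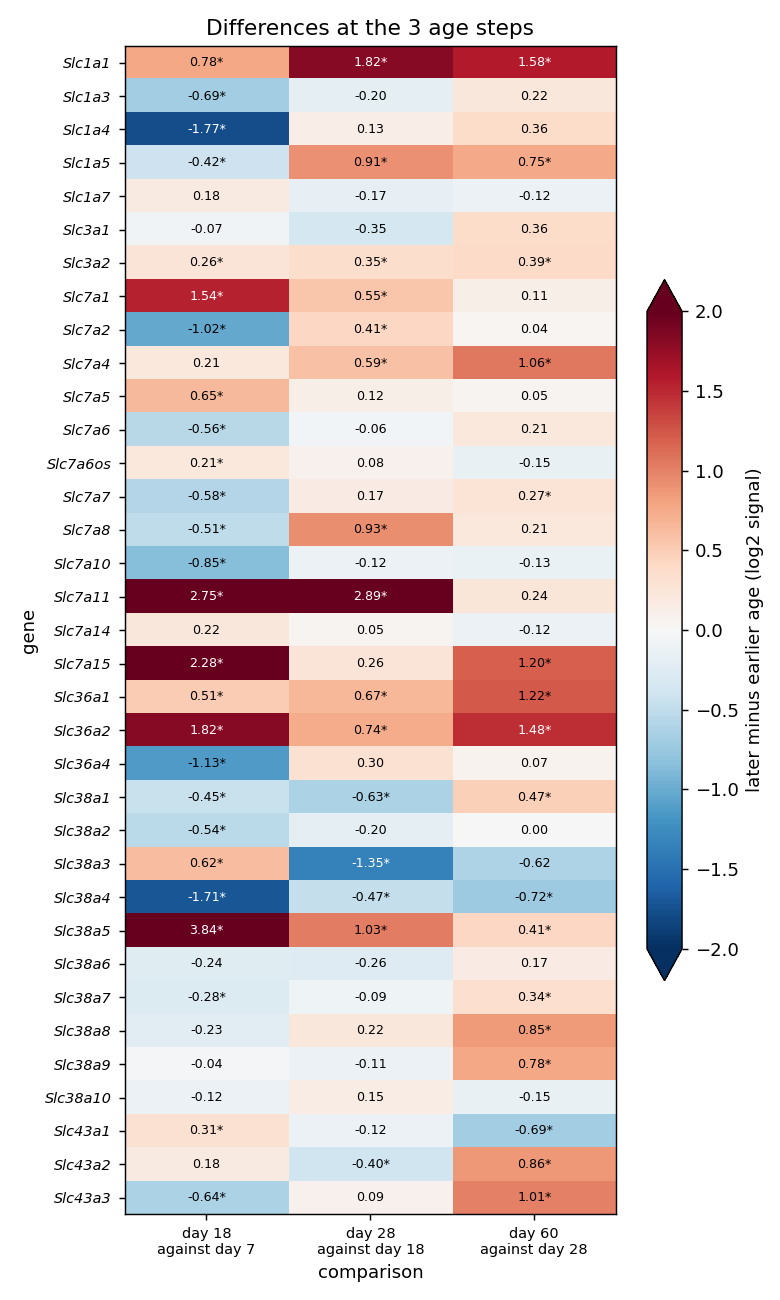
Later minus earlier age (log2 signal) at each of the 3 steps for the 35 members above the background level, with the colour scale ending at 2 in either direction; an asterisk marks an adjusted p under 0.05. At the step to day 18 12 members rose and 14 fell, and at the step to day 60 15 rose and 2 fell.

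The cystine carrier and its partner chain were both higher at day 60 than at day 7. Slc7a11 encodes xCT, the light chain of the exchanger that takes up cystine in return for glutamate and so feeds glutathione synthesis. It read 3.62, 3.25 and 3.35 in the day 7 pools, 5.79, 6.09, 6.39 and 6.34 in the day 18 pools, 8.90, 9.04, 9.06 and 9.19 in the day 28 pools and 9.21, 9.29 and 9.35 in the day 60 pools. The ages did not overlap at any step, and the day 28 and day 60 pools lay close together. Its differences were 2.75 ± 0.13 at day 18 (adjusted p = 1.1e-09), 2.89 ± 0.12 at day 28 (adjusted p = 1.17e-09) and 0.24 ± 0.13 at day 60, which was not called (adjusted p = 0.225). The whole span came to 5.87 ± 0.14, or 58.7-fold. The day 7 mean of 3.41 ± 0.19 lay under the background level, so the sizes of the day 18 step and of the whole span are uncertain, and the day 60 mean was 20.6-fold above that level itself.

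Slc3a2 encodes the heavy chain CD98hc, which brings Slc7a5, Slc7a6, Slc7a7, Slc7a8, Slc7a10 and Slc7a11 to the cell surface. Its pools read 9.69, 9.61 and 9.72 at day 7, 9.85, 10.04, 9.96 and 9.90 at day 18, 10.25, 10.26, 10.33 and 10.31 at day 28 and 10.76, 10.62 and 10.66 at day 60. Each age lay above the one before with no overlap, in small and similar steps. These steps were 0.26 ± 0.071 (adjusted p = 0.00871), 0.35 ± 0.066 (adjusted p = 0.00116) and 0.39 ± 0.071 (adjusted p = 0.000931), for 2.01-fold in all. The first of them was no longer called with arrays centred on their medians (0.21, adjusted p = 0.0773). Slc3a1, the other heavy chain, which pairs with Slc7a9 in kidney and gut, had age means between 5.97 and 6.39 and was called at no step, although its pools did not overlap at day 28 against day 18 or at day 60 against day 28. Its difference at day 28 passed with arrays centred (-0.40, adjusted p = 0.0442), with both ages alone (adjusted p = 0.0353) and without day 7 replicate 1 (adjusted p = 0.0157), and that at day 60 (0.36) passed without day 7 replicate 1 (adjusted p = 0.0204). Slc7a9 itself lay between 4.02 and 4.27, under the background level.

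Slc1a1 encodes a high-affinity sodium-driven carrier of glutamate and aspartate that also takes up cysteine. It read 5.56, 5.54 and 5.89 at day 7, 6.49, 6.29, 6.73 and 6.27 at day 18, 8.27, 8.23, 8.39 and 8.17 at day 28 and 9.80, 9.87 and 9.87 at day 60. No pool of one age reached the next age, and most of the gain came after day 18. The steps were 0.78 ± 0.12 (adjusted p = 7.98e-05), 1.82 ± 0.11 (adjusted p = 1.71e-08) and 1.58 ± 0.12 (adjusted p = 3.95e-07), 18.2-fold over the span. The other glutamate carriers of the family were not called higher in the fit of all pools. Slc1a3, best known from glia, fell by 0.69 ± 0.095 at day 18 (adjusted p = 3.47e-05). At that step the 3 measured nerve and Schwann cell markers were all lower. All 5 fibroblast and matrix markers were lower too, and all 5 epithelial markers were higher. The part of any cell type in the fall was not tested. The later differences of Slc1a3 passed with 1 pool omitted: at day 28 without day 28 replicate 4 (-0.26, adjusted p = 0.0458), and at day 60 without day 28 replicate 4 (0.28, adjusted p = 0.0454) or day 60 replicate 3 (0.31, adjusted p = 0.0383). Slc1a2, the main glial carrier, and Slc1a6, of cerebellar neurons, had means under the background level at every age, and Slc1a7, of the retina, had age means of 5.10 to 5.39 and was not called.

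**Figure D3:**
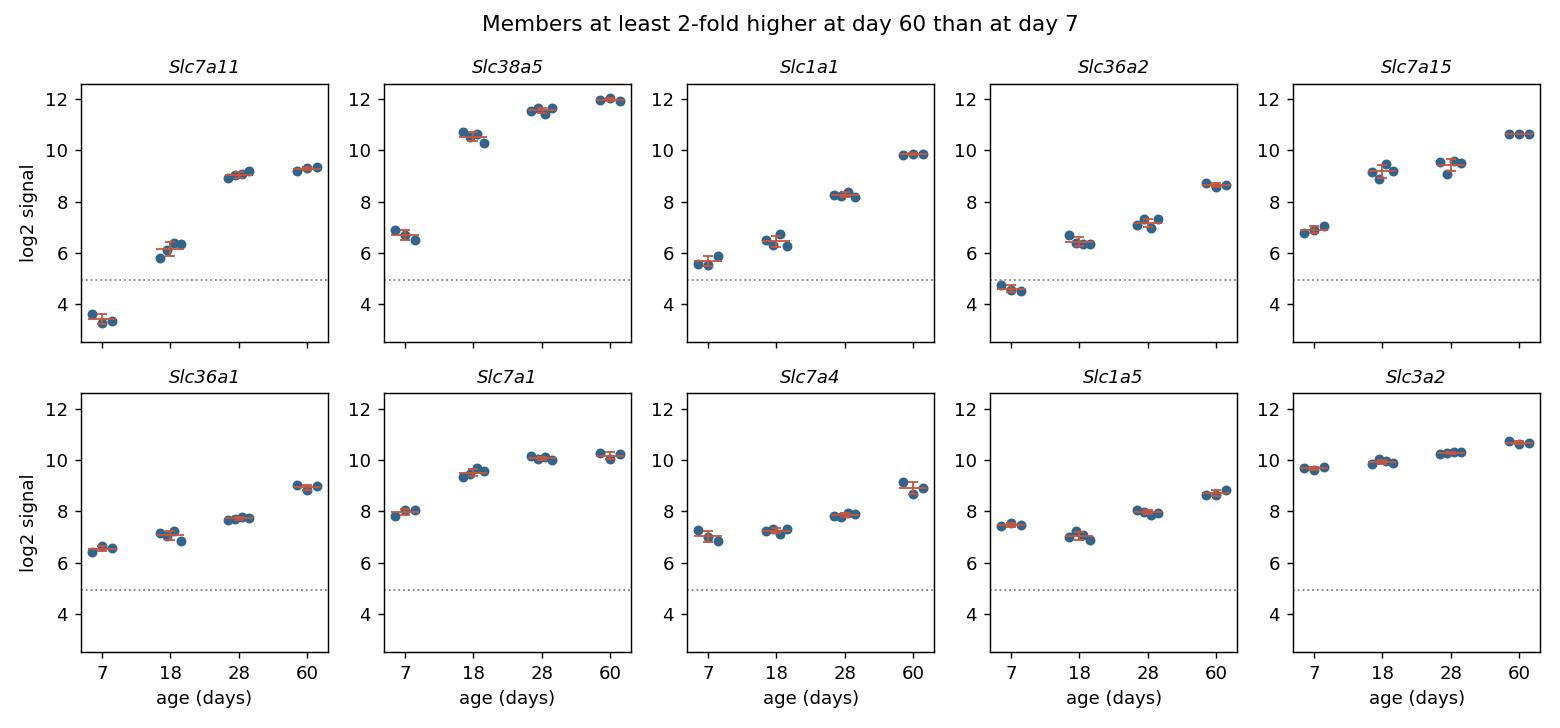
Log2 signal of each pool (points) at 7, 18, 28 and 60 days, with the mean and SD of each age (horizontal mark and bar), for the 10 members at least 2-fold higher at day 60 than at day 7; the dotted line is the background level of 4.92. Slc7a11 and Slc36a2 start under that line at day 7, and the other 8 start above it.

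The neutral exchangers of the Slc1 family moved in opposite directions over the span. Slc1a5, which exchanges glutamine for other neutral amino acids, read 7.41, 7.56 and 7.45 at day 7, 6.99, 7.25, 7.08 and 6.88 at day 18, 8.06, 7.96, 7.87 and 7.95 at day 28 and 8.63, 8.65 and 8.84 at day 60. It dipped at day 18 below every day 7 pool and then passed them. The dip was -0.42 ± 0.093 (adjusted p = 0.00209), and the gains were 0.91 ± 0.086 at day 28 (adjusted p = 2.23e-06) and 0.75 ± 0.093 at day 60 (adjusted p = 4.45e-05). Slc1a4, its relative for alanine, serine, cysteine and threonine, read 8.55, 8.61 and 8.69 at day 7, 6.89, 6.69, 6.95 and 6.87 at day 18, 7.09, 6.68, 7.25 and 6.87 at day 28 and 7.56, 7.15 and 7.30 at day 60. Day 7 stood far above the other ages. Slc1a4 fell by 1.77 ± 0.13 at day 18 (adjusted p = 5.57e-08) and differed by 0.13 ± 0.12 and 0.36 ± 0.13 at the later steps, neither of them called (adjusted p = 0.491 and 0.0517). The last passed the threshold under 6 alternatives, among them the omission of day 28 replicate 3 (0.45, adjusted p = 0.0176) or day 60 replicate 2 (0.46, adjusted p = 0.0354). At day 60 Slc1a4 was 2.43-fold lower than at day 7, while Slc1a5 was 2.35-fold higher.

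The Slc38 family held both a steep rise at day 18 and the largest called fall of any member over the span. Slc38a5 encodes a carrier that couples glutamine, histidine and asparagine to sodium and, in the opposite direction, protons. It read 6.88, 6.69 and 6.50 at day 7, 10.70, 10.52, 10.62 and 10.28 at day 18, 11.55, 11.63, 11.40 and 11.64 at day 28 and 11.97, 12.03 and 11.91 at day 60. Most of its rise lay between the first 2 ages. The steps were 3.84 ± 0.11 (adjusted p = 5.78e-12), 1.03 ± 0.10 (adjusted p = 3.67e-06) and 0.41 ± 0.11 (adjusted p = 0.0129), 38.8-fold in all. The last step was no longer called without day 60 replicate 2 (0.39, adjusted p = 0.0511) or after quantile normalization (0.29, adjusted p = 0.0681).

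Slc38a3, the sister gene with the same type of transport, went the other way after day 18. Its pools read 7.37, 7.02 and 7.47 at day 7, 7.31, 8.15, 7.72 and 8.45 at day 18, 6.67, 6.46, 6.43 and 6.70 at day 28 and 6.12, 6.14 and 5.57 at day 60. The day 18 pools spread widely and overlapped with day 7, and every day 28 and day 60 pool lay below both. The rise at day 18 (0.62 ± 0.22, adjusted p = 0.0376) was lost when any of 4 pools was omitted: day 7 replicate 1 or 2 and day 18 replicate 2 or 4 (adjusted p of 0.0648 to 0.158). It was lost too in a fit restricted to both ages (adjusted p = 0.0806) and with all clusters adjusted together (adjusted p = 0.074). Slc38a3 fell by 1.35 ± 0.21 at day 28 (adjusted p = 0.000215), and the difference of -0.62 ± 0.22 at day 60 was not called (adjusted p = 0.0543), although the pools did not overlap. That difference passed under 6 alternatives: the omission of day 18 replicate 1 (adjusted p = 0.0217) or 4 (0.0284), quantile normalization (0.0492), the filter at the median level (0.02), the pools of both ages alone (0.017) and weighted arrays (0.0322). Over the span it was 2.54-fold lower.

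Slc38a1, Slc38a2 and Slc38a4 encode the sodium-driven carriers of small neutral amino acids and are next to each other on chromosome 7, with no protein-coding gene between. Slc38a4, which is imprinted in mouse, read 7.94, 7.78 and 7.97 at day 7, 6.06, 6.22, 6.24 and 6.23 at day 18, 5.62, 5.68, 5.87 and 5.71 at day 28 and 5.17, 4.82 and 5.01 at day 60. Each age lay under the one before. Day 60 ended near the background level, so the sizes of the last step and of the whole span are uncertain. Slc38a4 fell by 1.71 ± 0.095 (adjusted p = 3.93e-09), 0.47 ± 0.088 (adjusted p = 0.00124) and 0.72 ± 0.095 (adjusted p = 8.01e-05). Slc38a1 read 9.05, 8.88 and 9.09 at day 7, 8.49, 8.60, 8.48 and 8.64 at day 18, 7.99, 7.82, 7.82 and 8.08 at day 28 and 8.39, 8.31 and 8.47 at day 60. It was lowest at day 28 and partly regained its level. Its steps were -0.45 ± 0.088 (adjusted p = 0.000797), -0.63 ± 0.082 (adjusted p = 5.19e-05) and 0.47 ± 0.088 (adjusted p = 0.00142). Slc38a2 fell by 0.54 ± 0.098 at day 18 (adjusted p = 0.00045) and was not called at the later steps, but at day 28 its difference passed after quantile normalization (-0.26, adjusted p = 0.0426) and with robust hyperparameters (-0.20, adjusted p = 0.0421). Of these neighbours all 3 were lower at day 60 than at day 7, beside 27.6% of all genes. Slc38a1 fell by 0.62 ± 0.094, Slc38a2 by 0.74 ± 0.10 and Slc38a4 by 2.90 ± 0.10.

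Among the remaining Slc38 genes the day 60 step stood out. Slc38a8, a glutamine carrier known for its part in eye development in humans, read 5.44, 5.43 and 5.32 at day 7, 5.12, 5.23, 5.22 and 5.11 at day 18, 5.43, 5.27, 5.61 and 5.24 at day 28 and 6.17, 6.35 and 6.20 at day 60. The first 3 ages lay close together, and the day 60 pools stood above all of them. The means of those ages, 5.17 to 5.40, were not far above the background level, so the size of the rise is uncertain. The rise over day 28 was 0.85 ± 0.092 (adjusted p = 1.41e-05). At that step 4 of 5 haploid germ cell, 3 of 5 adipocyte and 3 of 5 macrophage markers were higher. Of the T lymphocyte and the principal cell markers 2 of 5 each were higher. Of the 5 fibroblast and matrix markers 1 was higher and 3 lower, and 1 of 5 epithelial markers was lower. The part of any cell type in this rise was not tested. The small differences of Slc38a8 at day 18 (-0.23 ± 0.092, adjusted p = 0.0657) and day 28 (0.22 ± 0.085, adjusted p = 0.0774) were not called, and passed under 4 and 2 alternatives. Slc38a9, the lysosomal arginine sensor upstream of the growth kinase mTORC1, rose by 0.78 ± 0.12 at the same step (adjusted p = 0.000325). Slc38a7, a lysosomal glutamine carrier, fell by 0.28 ± 0.077 at day 18 (adjusted p = 0.00868) and rose by 0.34 ± 0.077 at day 60 (adjusted p = 0.00491). Slc38a10 had age means within 0.15 of each other and was not called, but quantile normalization put it past the threshold at day 28 (0.19, adjusted p = 0.0403) and at day 60 (-0.21, adjusted p = 0.035). It also passed at day 28 with replicate 2 of that age omitted (0.21, adjusted p = 0.0462) and at day 60 with weighted arrays (-0.21, adjusted p = 0.0406). Slc38a6 was called at no step, except at day 18 with replicate 3 of that age omitted (-0.34, adjusted p = 0.0202) and at day 28 after quantile normalization (-0.31, adjusted p = 0.0483). Its difference of -0.33 ± 0.13 over the span (adjusted p = 0.0431) was lost when any of 7 pools was omitted (adjusted p up to 0.153), and Slc38a11 lay under the background level.

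The cationic carriers of the Slc7 family also moved apart. Slc7a1, the widely expressed carrier of arginine, lysine and ornithine, read 7.82, 8.04 and 8.06 at day 7, 9.34, 9.45, 9.70 and 9.56 at day 18, 10.14, 10.04, 10.10 and 9.99 at day 28 and 10.27, 10.04 and 10.22 at day 60. It climbed until day 28, and the last 2 ages overlapped. The rises were 1.54 ± 0.097 at day 18 (adjusted p = 1.39e-08) and 0.55 ± 0.090 at day 28 (adjusted p = 0.000371). Slc7a2, the second arginine carrier of the type, had readings of 8.34, 8.53 and 8.23 at day 7, 7.22, 7.39, 7.47 and 7.29 at day 18, 7.88, 7.62, 7.70 and 7.81 at day 28 and 7.76, 7.79 and 7.82 at day 60. It was highest at day 7 and lowest at day 18. It fell by 1.02 ± 0.091 at day 18 (adjusted p = 4.67e-07) and rose by 0.41 ± 0.084 at day 28 (adjusted p = 0.00249). At day 60 against day 7 Slc7a1 was 4.59-fold higher and Slc7a2 differed by -0.58 ± 0.098 (adjusted p = 0.000146).

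Slc7a4, which resembles the cationic carriers but for which no transport is established, read 7.27, 6.98 and 6.85 at day 7, 7.24, 7.32, 7.12 and 7.32 at day 18, 7.82, 7.76, 7.92 and 7.88 at day 28 and 9.14, 8.68 and 8.90 at day 60. The first 2 ages overlapped and the others stepped up. The later differences were 0.59 ± 0.11 (adjusted p = 0.000835) and 1.06 ± 0.12 (adjusted p = 1.42e-05). The difference of 0.21 ± 0.12 at day 18 was not called (adjusted p = 0.167) except when day 7 replicate 1 was omitted (0.33, adjusted p = 0.0415). Slc7a3 and its relative Slc7a3l1 lay under the background level, and Slc7a14, also related to the cationic carriers, was called at no step.

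The promoters of Slc7a1 and of 2 carriers described above share a short sequence. The amino acid response element, which ATF4 and C/EBP proteins bind when amino acids run short, was searched as TGATGNAA on both strands in the windows of 250 bases before to 50 after each gene's start (RefSeq, GRCr8). Windows were given for 33 of the 44 members. None was given for Slc1a1, Slc1a5, Slc7a2, Slc7a3, Slc7a3l1, Slc7a4, Slc7a13, Slc38a3, Slc38a10, Slc38a11 and Slc43a3, which were not searched. The amino acid response element was found in 3 of the 33, those of Slc7a1, Slc38a1 and Slc1a4, and in 3.98% of all 33469 windows given. That set of windows was not limited to the 18166 genes of the array. The antioxidant response element, bound by NRF2, was searched as TGACNNNGC and found in 6 of the 33 and in 12.1% of all. The androgen response element, searched on both strands as a palindrome of 13 letters, was found in 0 of the 33 and in 0.439% of all. A match is a description of letters and not of binding. The 3 windows with the first element and that of Slc7a11 are shown 5′ to 3′ in the direction of the gene, with matches of any of the 3 searches in capitals.
Slc7a1: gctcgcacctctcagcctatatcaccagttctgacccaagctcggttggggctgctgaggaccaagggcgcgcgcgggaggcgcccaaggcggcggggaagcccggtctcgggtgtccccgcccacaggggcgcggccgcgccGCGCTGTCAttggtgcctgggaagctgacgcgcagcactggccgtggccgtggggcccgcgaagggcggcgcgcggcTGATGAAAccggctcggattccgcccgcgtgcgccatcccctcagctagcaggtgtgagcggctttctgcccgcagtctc
Slc38a1: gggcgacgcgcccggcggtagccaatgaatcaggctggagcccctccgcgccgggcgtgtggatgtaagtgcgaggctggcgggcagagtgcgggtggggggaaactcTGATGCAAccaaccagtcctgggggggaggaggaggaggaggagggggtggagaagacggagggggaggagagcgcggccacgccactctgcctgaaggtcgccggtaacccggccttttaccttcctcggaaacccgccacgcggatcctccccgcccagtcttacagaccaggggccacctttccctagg
Slc1a4: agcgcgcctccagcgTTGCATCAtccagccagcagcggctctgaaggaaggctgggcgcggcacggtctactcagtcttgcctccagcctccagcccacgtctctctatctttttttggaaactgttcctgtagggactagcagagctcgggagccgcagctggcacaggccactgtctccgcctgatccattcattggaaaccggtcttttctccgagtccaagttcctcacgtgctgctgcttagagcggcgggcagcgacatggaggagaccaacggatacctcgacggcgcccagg
Slc7a11: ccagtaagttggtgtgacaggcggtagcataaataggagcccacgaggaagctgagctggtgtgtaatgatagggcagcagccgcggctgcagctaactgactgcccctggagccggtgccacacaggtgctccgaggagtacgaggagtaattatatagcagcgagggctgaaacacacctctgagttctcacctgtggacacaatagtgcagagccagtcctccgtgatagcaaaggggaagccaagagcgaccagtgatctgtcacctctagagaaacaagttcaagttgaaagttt

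These windows lie at chr12:11664238-11664537 on the plus strand for Slc7a1, chr7:129681352-129681651 on the minus strand for Slc38a1, chr14:98761513-98761812 on the minus strand for Slc1a4 and chr2:136668215-136668514 on the minus strand for Slc7a11, all in GRCr8. In Slc7a1 the amino acid response element begins 30 bases before the start, and the other capitals, 107 bases before it, are a match of the antioxidant search. In Slc38a1 it begins 142 bases and in Slc1a4 235 bases before the start, the last on the opposite strand. The Slc7a11 window holds no match of the 3 searches. The genes with the element did not move alike, since Slc7a1 was higher at day 60 than at day 7 while Slc38a1 and Slc1a4 were lower.

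Other Slc7 light chains showed smaller differences over the span than Slc7a11. Slc7a8, which exchanges neutral amino acids of many sizes, read 10.17, 10.16 and 10.25 at day 7, 9.71, 9.59, 9.81 and 9.64 at day 18, 10.64, 10.60, 10.71 and 10.54 at day 28 and 10.96, 10.67 and 10.88 at day 60. It dipped at day 18 in all 4 pools and then exceeded every day 7 pool. It fell by 0.51 ± 0.085 (adjusted p = 0.000214) and rose by 0.93 ± 0.078 at day 28 (adjusted p = 6.95e-07). The difference of 0.21 ± 0.085 at day 60 was not called (adjusted p = 0.0822) but passed under 4 alternatives, among them the omission of day 60 replicate 2 (0.30, adjusted p = 0.0278). Slc7a5, which carries leucine and other large neutral amino acids and is typical of growing cells, rose by 0.65 ± 0.10 at day 18 (adjusted p = 0.000161) and was not called afterwards, with means of 9.24 ± 0.15, 9.89 ± 0.12, 10.01 ± 0.13 and 10.06 ± 0.16 at the 4 ages. Slc7a15, known from mouse as a carrier that prefers aromatic amino acids, read 6.77, 6.87 and 7.04 at day 7, 9.17, 8.86, 9.45 and 9.21 at day 18, 9.53, 9.09, 9.59 and 9.51 at day 28 and 10.64, 10.64 and 10.63 at day 60. It rose at the first and last steps, and the pools of the middle ages overlapped. These rises were 2.28 ± 0.14 (adjusted p = 7.58e-09) and 1.20 ± 0.14 (adjusted p = 1.93e-05), and the middle step of 0.26 ± 0.13 was not called (adjusted p = 0.153) unless day 28 replicate 2 was left out (0.37, adjusted p = 0.0289) or arrays were weighted (0.34, adjusted p = 0.0403).

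Slc7a10, an exchanger of small neutral amino acids including D-serine that is also known from white adipocytes and brain, read 6.33, 6.25 and 6.16 at day 7, 5.56, 5.28, 5.06 and 5.70 at day 18, 5.35, 5.49, 5.30 and 4.98 at day 28 and 5.35, 4.93 and 5.19 at day 60. Every later pool lay under the day 7 pools. Slc7a10 had later age means of 5.40, 5.28 and 5.16, not far above the background level of 4.92, so the sizes of its falls are uncertain. It fell by 0.85 ± 0.15 at day 18 (adjusted p = 0.000422), a step at which 3 of 5 adipocyte markers were higher and 0 lower and all 3 measured nerve markers were lower; their part in the fall was not tested. Slc7a6 and Slc7a7, which export arginine and lysine in exchange for neutral amino acids, fell by 0.56 ± 0.17 (adjusted p = 0.0174) and 0.58 ± 0.092 (adjusted p = 0.000132) at day 18. The fall of Slc7a6 was not called without day 7 replicate 2 (adjusted p = 0.0613). Over the span Slc7a6 differed by -0.41 ± 0.18, which was not called (adjusted p = 0.0742). That difference passed under several alternatives, among them the omission of day 28 replicate 2 (adjusted p = 0.00139) and both ages alone (adjusted p = 0.00545). The rise of Slc7a7 at day 60 (0.27 ± 0.092, adjusted p = 0.0438) was not called when any 1 of 11 pools was left out (adjusted p up to 0.143). Slc7a6os rose by 0.21 ± 0.078 at day 18 (adjusted p = 0.0423), which ended with any 1 of 8 pools left out, and Slc7a12 and Slc7a13 lay under the background level.

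**Figure D4:**
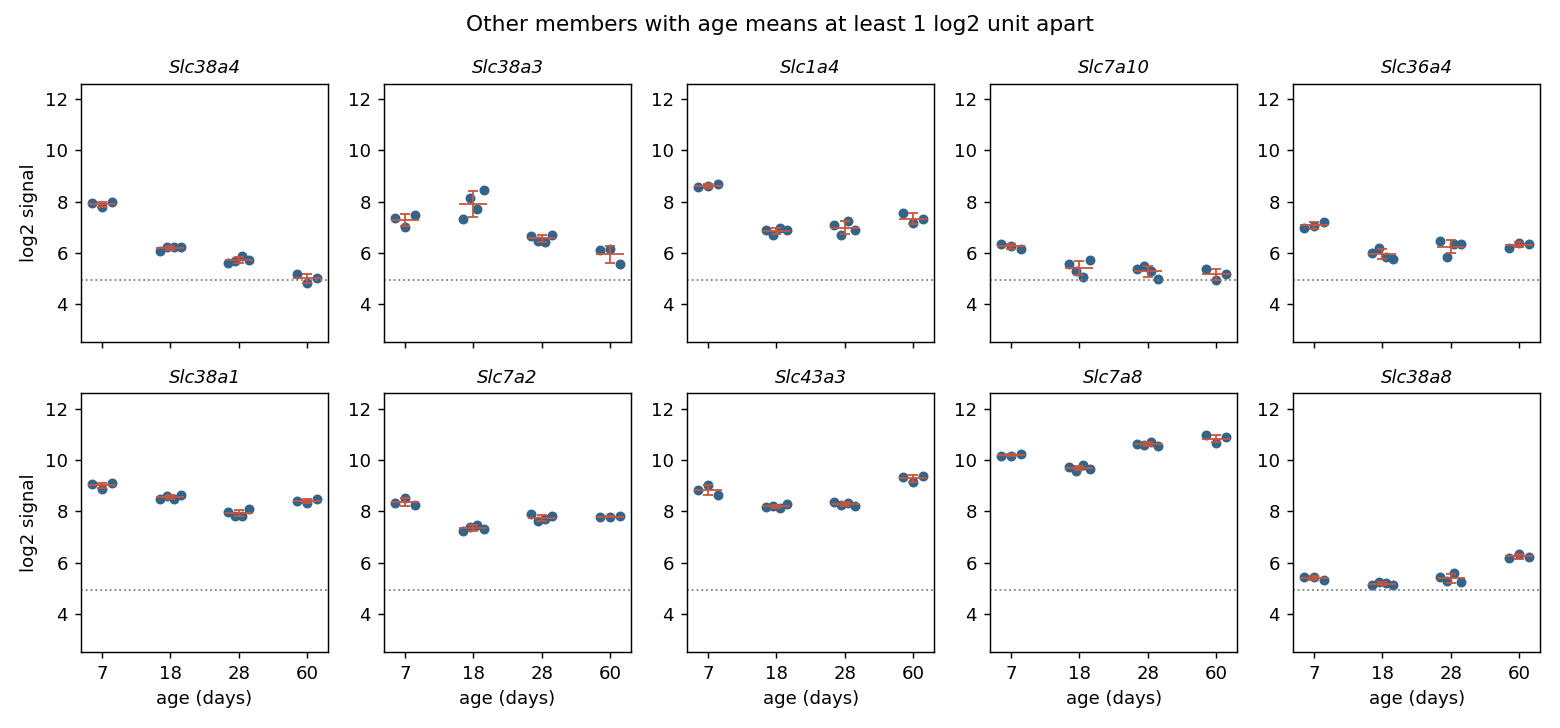
Log2 signal of each pool (points) at 7, 18, 28 and 60 days, with the mean and SD of each age (horizontal mark and bar), for the other 10 members whose age means lay at least 1 apart; the dotted line is the background level of 4.92. Slc38a4 falls at every step, Slc38a3 peaks at day 18, and Slc38a8 and Slc43a3 are highest at day 60.

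Of the proton-coupled carriers, 2 rose and 1 fell over the span, beside 21.7% of all genes higher and 27.6% lower. Slc36a3, Slc36a2 and Slc36a1 follow each other on chromosome 10 with no protein-coding gene between. Slc36a2, a carrier of glycine, alanine and proline, read 4.76, 4.56 and 4.49 at day 7, 6.69, 6.37, 6.33 and 6.33 at day 18, 7.09, 7.30, 6.95 and 7.31 at day 28 and 8.71, 8.58 and 8.63 at day 60. It went up at each step without overlap, and its day 7 pools all lay under the background level. The steps were 1.82 ± 0.11 (adjusted p = 1.19e-08), 0.74 ± 0.10 (adjusted p = 0.00012) and 1.48 ± 0.11 (adjusted p = 5.74e-07), 16.4-fold in all. The first step and the span start under the background level, so their sizes are uncertain; day 60 was 13.2-fold above that level. Slc36a1, which also exports amino acids from lysosomes, read 6.43, 6.64 and 6.57 at day 7, 7.14, 7.02, 7.22 and 6.85 at day 18, 7.67, 7.71, 7.78 and 7.72 at day 28 and 9.02, 8.82 and 8.97 at day 60. Its pools did not overlap between ages. The steps were 0.51 ± 0.092 (adjusted p = 0.00041), 0.67 ± 0.085 (adjusted p = 4.51e-05) and 1.22 ± 0.092 (adjusted p = 4.99e-07).

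Slc36a3, the neighbour of Slc36a2, had age means of 3.72 to 4.01, under the background level, and was not called. Slc36a4, the fourth gene of the family, read 6.96, 7.04 and 7.22 at day 7, 6.01, 6.17, 5.85 and 5.76 at day 18, 6.45, 5.85, 6.34 and 6.33 at day 28 and 6.20, 6.38 and 6.35 at day 60. Day 7 stood above all later pools. It fell by 1.13 ± 0.14 at day 18 (adjusted p = 9.96e-06) and was not called afterwards, although its difference of 0.30 ± 0.13 at day 28 (adjusted p = 0.105) passed with day 28 replicate 2 omitted (0.43, adjusted p = 0.00801) or arrays weighted (0.37, adjusted p = 0.0203).

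All 3 Slc43 genes were called at the last step, though not in 1 direction, beside 25% of all genes. Slc43a1 and Slc43a2 let large neutral amino acids such as leucine and phenylalanine through the membrane without sodium. They moved apart at day 60 against day 28: Slc43a1 fell by 0.69 ± 0.11 (adjusted p = 0.000473) and Slc43a2 rose by 0.86 ± 0.11 (adjusted p = 5.17e-05). Slc43a2 had fallen by 0.40 ± 0.10 at day 28 (adjusted p = 0.00905). The rise of Slc43a1 at day 18 (0.31 ± 0.11, adjusted p = 0.0407) was not called when any 1 of 6 pools was left out, with a value of 0.20 without day 7 replicate 3. Slc43a3, the nucleobase carrier, read 8.85, 9.01 and 8.63 at day 7, 8.15, 8.21, 8.11 and 8.28 at day 18, 8.36, 8.24, 8.32 and 8.20 at day 28 and 9.35, 9.13 and 9.38 at day 60. It was low in the middle ages and highest at day 60. It fell by 0.64 ± 0.096 at day 18 (adjusted p = 8.02e-05) and rose by 1.01 ± 0.096 at day 60 (adjusted p = 4.32e-06).

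Genes that supply, use or sense amino acids were counted beside the carriers, at day 60 against day 7. Their counts stand beside 21.7% of all genes higher and 27.6% lower at that comparison, or 49.2% called. Of 16 measured genes of cystine, cysteine and glutathione supply 9 were higher and 3 lower, with a median difference of 0.44. Cth and Cbs, which make cysteine from homocysteine, rose by 4.02 ± 0.11 (adjusted p = 5.96e-13) and 2.62 ± 0.087 (adjusted p = 4.08e-12), and Gclc, the first enzyme of glutathione synthesis, by 1.96 ± 0.10 (adjusted p = 6.03e-10). Cth rose at day 18 (2.18 ± 0.10) and at day 28 (1.58 ± 0.096) and was not called at day 60 (0.26 ± 0.10, adjusted p = 0.087), whereas Cbs rose at day 18 (2.72 ± 0.081) and was not called later. Anpep, an aminopeptidase, fell by 1.46 ± 0.10 (adjusted p = 1.37e-08).

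Of 23 genes of glutamate, glutamine, arginine and polyamine metabolism 13 were higher and 4 lower (median 0.44). Sat1, which acetylates polyamines, and Oat, which links ornithine to glutamate, rose by 2.57 ± 0.091 and 1.93 ± 0.085. Ass1, of arginine synthesis, rose by 1.33 ± 0.14 at day 18 and fell by 2.54 ± 0.13 at day 28 and 0.94 ± 0.14 at day 60. The amino acid response and serine synthesis genes had 10 of 23 higher and 5 lower (median 0.15), beside the same 49.2% called of all genes. Among these Mthfd2, of mitochondrial folate metabolism, rose by 1.85 ± 0.11 (adjusted p = 3.83e-09), and the stress factor Atf3 fell by 2.23 ± 0.16 (adjusted p = 2.42e-08). Cth and Cbs belong to this list as well.

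Carriers outside the 6 families were counted too, against the same 21.7% higher and 27.6% lower of all genes. Of the other amino acid and peptide transporters 6 of 20 were higher and 1 lower (median 0.12). Slc17a5, a lysosomal carrier of sialic acid and acidic amino acids, rose by 1.65 ± 0.093 and Slc16a10, which lets aromatic amino acids through, by 1.36 ± 0.085. The 1 that fell was Slc6a6, the taurine carrier, named here after its value was seen (0.46 ± 0.11 lower, adjusted p = 0.00289). Mitochondrial amino acid carriers had 6 of 9 higher and 1 lower (median 0.75), led by Slc25a13, an aspartate and glutamate carrier, at 1.28 ± 0.11.

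Partner proteins, nutrient sensors and the enzymes that charge transfer RNA were the last lists. Cltrn, the partner that brings Slc6 amino acid carriers to the surface in kidney, rose at each step by 1.01 ± 0.16, 1.18 ± 0.15 and 1.01 ± 0.16 and by 3.19 ± 0.17 in all (adjusted p = 7.28e-10). Among the other transporters counted above, no Slc6 gene was called higher over the span. With Cltrn, 2 of 6 partner genes were higher and 2 lower, and the other riser was Slc3a2. In the mTORC1 nutrient sensing list 7 of 24 were higher and 6 lower (median 0.02), a share close to the 49.2% called of all genes. At the step to day 28 1 of the 24 was higher and 7 lower, beside 10.5% and 14.3% of all genes. At the step to day 60 8 of the 24 were higher, Slc38a9 among them, and 0 lower, beside 13.8% and 11.2% of all genes. The list averaged 7.63 to 7.64 per pool at day 7, 7.60 to 7.68 at day 18, 7.37 to 7.62 at day 28 and 7.64 to 7.67 at day 60. Of the aminoacyl-tRNA synthetases 1 of 19 was higher and 8 lower (median -0.14), and the share called was again close to the 49.2% of all genes. The riser was Wars1, the tryptophan enzyme, which interferon also induces and which rose by 0.98 ± 0.084 (adjusted p = 1.31e-07). The largest fall of that list was 0.65 ± 0.11, in Vars1 (adjusted p = 0.000187).

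**Figure D5:**
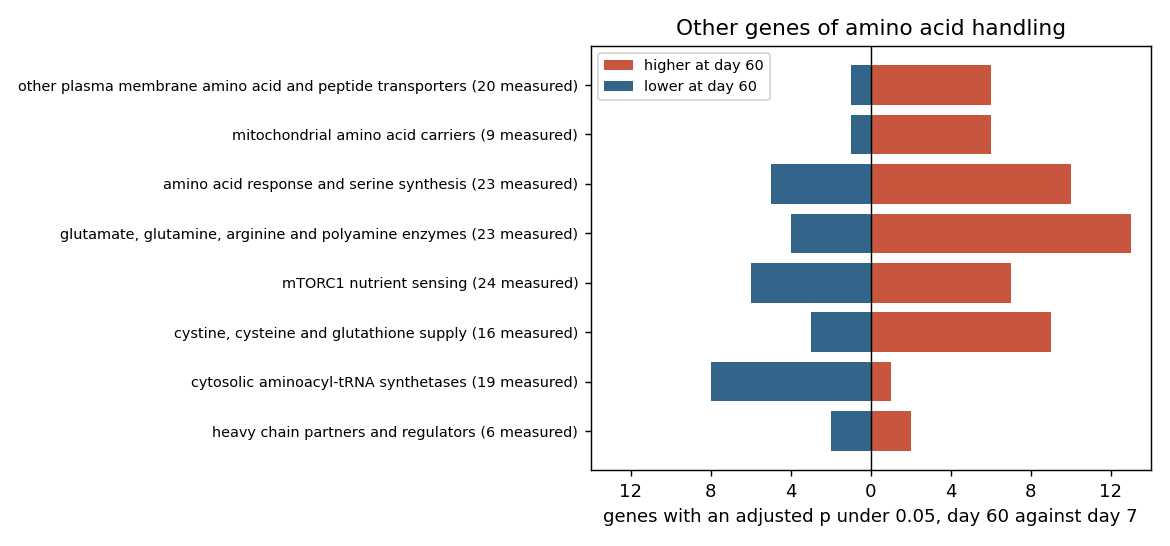
Number of genes higher (right, red) and lower (left, blue) at day 60 than at day 7 with an adjusted p under 0.05, for 8 lists of genes of amino acid handling. Metabolic enzymes of glutamate and arginine have 13 higher and 4 lower, and aminoacyl-tRNA synthetases 1 higher and 8 lower, where 21.7% of all genes were higher and 27.6% lower.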

How the data were processed

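The deposited file gives a log2 signal for each transcript cluster in each sample. The authors used RMA and the Transcriptome Analysis Console, per the submitters' processing notes; versions, settings and annotation are not given in the sources used here. Of 36685 clusters 18511 had 1 symbol in the array annotation, 575 had several and 17599 were not listed. The cluster with the highest mean stood for a gene, which gave 18166 genes. None was removed for low signal, and signal shared between paralogs was not separated. A mean for each age was estimated from the 14 arrays together by limma 3.58.1 under R 4.3.3, with moderated two-sided tests and Benjamini-Hochberg adjustment over all genes, and the script was tested on simulated data. Members and lists were chosen with earlier results of these data known. Pool values are printed for members called in the joint F test with age means at least 1 apart; of other lists, up to 4 called genes with the largest day 60 minus day 7 difference could be named. The number of arrays limits the precision. Whether pools came from separate litters is not stated, so p-values measure the spread between these pools. No build is named for the array, and promoter windows are RefSeq's in GRCr8. Alternatives were quantile normalization, median centring, a filter at the median level, robust hyperparameters with a trend, a fit of 2 ages, a replicate block, weighted arrays, the mean of clusters, adjustment over every cluster, a 1.5-fold minimum, and omission of each pool.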

Additional observations from a re-analysis of the deposited data

Results flagged for a closer look

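In 3 of the 88 groups of 4 pools (44 members at day 18 and day 28), 1 pool lay far from the other 3 by Dixon's criterion, where chance gives about 1 in 20 groups. Slc7a15 read 9.09 in day 28 replicate 2, against 9.51 to 9.59 in the other day 28 pools. Slc36a2 read 6.69 in day 18 replicate 1, against 6.33 to 6.37 in the others of that age. Slc38a4 read 6.06 in day 18 replicate 1, against 6.22 to 6.24 in the others of that age.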

How the results depend on the processing

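The number of members called kept within 1.5 times of the value given under the alternatives run (the mean of clusters changed nothing, since no member had several, and the joint test has no fit of 2 ages), with 1 exception: a minimum of 1.5-fold left 15 of the 26 calls at day 18 against day 7 (8 higher and 7 lower), as its construction implies. Leaving out 1 pool gave 23 to 26 calls at that step, 15 to 18 at day 28 against day 18, 16 to 18 at day 60 against day 28, 26 to 28 over the span and 29 to 31 in the joint test. With the replicate number as a block the counts were 23, 15, 18, 26 and 31, and the rise of Slc38a3 at day 18 was no longer called (0.51, adjusted p = 0.0918). Same-numbered pools did not deviate together (median correlation 0.01, 19 pairs, -0.143 to 0.046), and 3 of 14 arrays correlated best with their own number. Of 1904 values of the 20 members printed in full, 24 lost and 27 gained a call, and 14 of those lost fell to the 1.5-fold minimum. Among differences called in the main fit 0 changed sign, and the signs of the others were not compared. Genes under the background level have no order and their folds are uncertain.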
